A study of Mus musculus with 46 samples.

Results

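The 10 genes examined here, Dusp6, Dusp4, Spry2, Spry4, Etv4, Etv5, Egr1, Fosl1, Ier3 and Phlda1, are genes that the RAS-MAPK pathway switches on and that report or restrain its output. They were taken by symbol, as a set put together with earlier results of these data known, and all 10 are among the 9857 genes listed with 1 entry each in both treatments. Ribosome footprints, the stretches of mRNA that a translating ribosome shields from RNase, and poly(A) transcripts were sequenced from EPP2 cells, a murine pancreatic cancer line used as a single cell-derived clone in which doxycycline switches on Cas9. In the Ctu1 iKO cultures this removes Ctu1, a subunit of the enzyme that thiolates wobble uridines of the tRNAs for AAA, CAA and GAA codons, whereas control cultures are labelled wild type. Doxycycline was given at 300 ng/ml from 4 days before. Each genotype received DMSO or 300 nM torin 1, an inhibitor of the mTOR kinase, for 2 h. Per assay there were 6 control DMSO, 6 control torin 1, 5 Ctu1 iKO DMSO and 6 Ctu1 iKO torin 1 libraries.

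ERK, the last kinase of the RAS-RAF-MEK-ERK cascade, turns on a fast set of genes, and many of their products act back on the cascade. Dusp6 and Dusp4 encode dual-specificity phosphatases that dephosphorylate ERK, the former in the cytoplasm and the latter in the nucleus, and Spry2 and Spry4 encode Sprouty proteins that dampen receptor tyrosine kinase signalling. Etv4 and Etv5 are ETS transcription factors of the PEA3 group, Egr1 is an immediate-early zinc finger factor, Fosl1 encodes the AP-1 subunit FRA1, and Ier3 and Phlda1 are early-response genes. Many mRNAs of this kind are short-lived, so that their levels follow the signal closely.

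The footprint libraries held 4602092 to 52907878 counts and the transcript libraries of replicates 1 to 3 held 129881946 to 293648854. Over 168 genes higher and 276 lower with torin 1 in footprints, chosen on these footprint libraries, which they therefore do not check, and with none of the 10 among them, all 12 transcript libraries of replicates 1 to 3 lay nearer to the treatment on their own label. Among transcript replicates 4 to 6, however, 2 of 5 DMSO and 4 of 6 torin 1 libraries lay nearer to the other treatment, so transcripts and translational efficiency were compared on replicates 1 to 3. Ctu1, which was listed only with DMSO, had 1.58 to 3.43 footprint CPM (counts per 1000000 counts of the library) in control and 1.30 to 2.28 in Ctu1 iKO, a log2 change of -0.54 (SE 0.29, edgeR adjusted p = 0.353), and its transcript changed by 0.02 (SE 0.11, adjusted p = 0.926). Counts over the whole gene do not show whether its reading frame was cut. Of 7 ductal markers 4 were listed (Krt8, Krt18, Krt19 and Sox9) while Krt7, Epcam and Cdh1 were not, all 4 mesenchymal markers were listed with Vim at 1870 to 4750 and Fn1 at 1840 to 8730 footprint CPM, and 3 of 5 fibroblast markers were listed, with Col1a1 at 125 to 704. None of 4 acinar, 3 leukocyte and 3 endothelial markers was listed. Summed transcript CPM of the mesenchymal markers ran from 5300 to 6680 in control DMSO, 7160 to 8980 in control torin 1, 6480 to 9750 in Ctu1 iKO DMSO and 10900 to 18300 in Ctu1 iKO torin 1, and that of the ductal markers from 294 to 312, 383 to 426, 321 to 401 and 534 to 602. In both lists the torin 1 libraries thus lay above the DMSO libraries of their genotype, and those of Ctu1 iKO torin 1 above all others. Fibroblast markers summed to 96.8 to 165, 107 to 174, 110 to 185 and 80.8 to 274. In footprints the groups of the mesenchymal list overlapped (5400 to 7380, 5130 to 6460, 5420 to 8900 and 4940 to 11400). Ductal markers there summed to 302 to 380, 324 to 418, 357 to 485 and 412 to 513, so that Ctu1 iKO torin 1 lay above control DMSO. The part of these markers in the results was not tested. In bulk cultures, fewer cells of a kind and less RNA per cell cannot be told apart.

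Reference sequence upstream of the start site was at hand for 4 of the 10 genes (Dusp6, Spry2, Etv5 and Ier3; RefSeq, GRCm38.p6). The 250 bases before the start of Dusp6, Spry2 and Ier3 are shown because the first and the second of these genes rose with torin 1 and the third was not called. They lie at chr10:99262981-99263230 on the plus strand, chr14:105896820-105897069 on the minus strand and chr17:35821463-35821712 on the plus strand, and capitals mark GGAA, the core that ETS factors such as Etv4 and Etv5 recognise, or its complement TTCC.
Dusp6: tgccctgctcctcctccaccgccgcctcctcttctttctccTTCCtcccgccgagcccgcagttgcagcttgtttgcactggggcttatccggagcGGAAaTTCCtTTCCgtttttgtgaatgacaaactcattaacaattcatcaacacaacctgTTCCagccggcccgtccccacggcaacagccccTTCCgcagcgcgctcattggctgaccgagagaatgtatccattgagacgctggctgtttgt
Spry2: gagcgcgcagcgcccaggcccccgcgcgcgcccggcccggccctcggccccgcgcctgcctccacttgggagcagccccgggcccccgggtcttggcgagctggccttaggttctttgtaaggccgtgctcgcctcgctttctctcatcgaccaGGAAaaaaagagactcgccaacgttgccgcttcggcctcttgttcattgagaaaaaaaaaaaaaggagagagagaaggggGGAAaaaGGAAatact
Ier3: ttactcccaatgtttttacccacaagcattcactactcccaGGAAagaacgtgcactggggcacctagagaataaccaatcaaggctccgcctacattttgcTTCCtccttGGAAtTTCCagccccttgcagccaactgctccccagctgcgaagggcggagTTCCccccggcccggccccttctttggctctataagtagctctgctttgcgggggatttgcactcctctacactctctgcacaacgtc
The core occurs 6 times before Dusp6, 3 times before Spry2 and 5 times before Ier3, and 0 and 4 times before the pair of Etv5 starts, against a median of 3 over 32851 promoter windows, of which 93.4% hold at least 1. None of the windows of these 4 genes holds the AP-1 motif TGANTCA (6.75% of all windows do), the CRE TGACGTCA (1.55%), the longer ETS site CCGGAAGT (2.88%, which contains the core), the EGR site GCGTGGGCG (0.536%) or a CArG box (1.47%), searched on both strands. Such matches describe letters only.

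Per kilobase of coding sequence, the footprint level in control cells with DMSO was highest for the ERK phosphatase gene Dusp6, at a median of 127 CPM per kb, and lowest for Spry2, at 17.7. Between them came Ier3 (107), Fosl1 (87.0), Egr1 (69.4), Etv5 (60.6), Etv4 (43.9), Phlda1 (41.0), Spry4 (24.9) and Dusp4 (23.4). The median over the 10 genes was 52.3 CPM per kb, against 17.1 over the 9620 genes with a matched transcript, and all 10 lay at or above the 50.9 percentile. The AU-rich pentamer ATTTA, which marks many short-lived mRNAs, was found in 9 of the 10 genes and in 68.3% of all. It occurred 8.16 times per kb of 3′ UTR in Ier3 and 4.9 times in Phlda1, which puts them at the 98.5 and 92.8 percentile of all matched genes. In Etv4 the pentamer was absent, and the median was 1.88 per kb over the 10 genes and 1.44 over all. Codons read by tRNAs that Ctu1 helps to modify (AAA, CAA and GAA) made up a median of 4.06% of their coding sequence, below the 6.13% of all genes. The share was lowest in Spry4 (1.0%), Dusp4 (2.51%) and Spry2 (2.86%) and highest in Etv4 (5.98%).

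**Figure D1:**
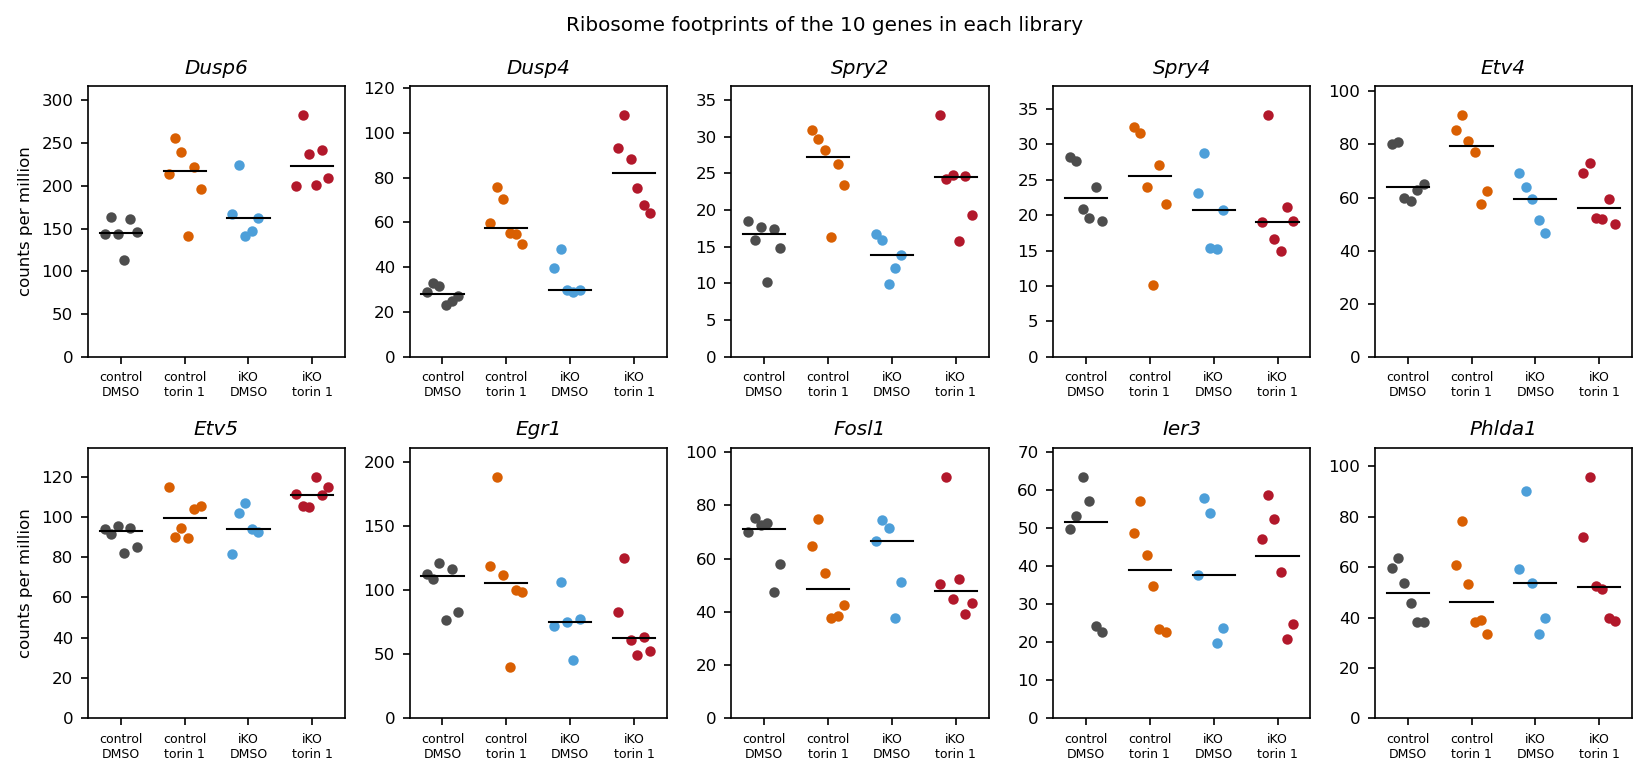
Footprint CPM (vertical axis, linear from 0) of each gene in each of the 23 libraries, by genotype and treatment, where points are libraries and lines are group medians. The 6 control torin 1 libraries of Dusp4 lie at 50.5 to 75.6, all above the control DMSO libraries, whereas control DMSO and control torin 1 overlap in the other 9 genes.

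With torin 1 in control cells, footprints of 3 of the 10 genes rose: Dusp4 about 2-fold, Spry2 1.53-fold and Dusp6 1.37-fold. Spry4, the other Sprouty gene, had a log2 change of -0.02 (adjusted p = 0.978). None of the 10 was called lower. Of 9856 genes tested, 2.91% were called higher and 4.33% lower (edgeR quasi-likelihood test, Benjamini-Hochberg adjusted p under 0.05). Dusp4 (chr8:34807610-34819894) lay at 23.3 to 32.9 CPM with a median of 28.0 in the 6 control DMSO libraries and at 50.5 to 75.6 with a median of 57.4 in the 6 control torin 1 libraries. The ranges of this nuclear ERK phosphatase gene did not overlap, and it was the only one of the 10 for which this held, as it did for 6% of the 9857 genes. Its log2 change was 1.03 (SE 0.13, 95% confidence interval 0.76 to 1.30, adjusted p = 7.15e-05), and torin 1 was above DMSO by 1.86 to 2.37 times in 6 of 6 replicate numbers.

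Spry2 and Dusp6 moved less, and their groups overlapped. Spry2 lay at 10.2 to 18.5 CPM (median 16.7) with DMSO and at 16.4 to 30.9 (median 27.2) with torin 1, a log2 change of 0.62 (SE 0.16, adjusted p = 0.0274). Dusp6 lay at 113 to 163 CPM (median 145) and at 141 to 256 (median 218), a log2 change of 0.45 (SE 0.13, adjusted p = 0.0404). Both were higher with torin 1 in 6 of 6 replicate numbers, Spry2 by 1.51 to 1.87 times and Dusp6 by 1.25 to 1.67 times. Both calls were close to the threshold, and the changes kept their direction without any one library. Left out one at a time, control DMSO replicate 4 or 6 and control torin 1 replicate 1, 2, 3 or 5 each ended the call of Spry2 (log2 change 0.53 to 0.71, adjusted p up to 0.0638), and every library other than control DMSO replicate 2 and control torin 1 replicate 4 ended that of Dusp6 (0.38 to 0.54, up to 0.0882). Dusp4 was called in 12 of 12 such fits.

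The other 7 genes were not called. The AP-1 subunit gene Fosl1 lay at 47.5 to 75.3 CPM (median 71.2) with DMSO and at 37.8 to 74.9 (median 48.5) with torin 1, lower in 6 of 6 replicate numbers, with a log2 change of -0.44 (SE 0.18, adjusted p = 0.176). Same-numbered libraries of these groups deviated together, with correlations of 0.436 to 0.641, and with the replicate number as a block 4 of the 10 genes passed, Dusp4, Spry2, Dusp6 and Fosl1, of which Fosl1 fell by 0.46 on the log2 scale (adjusted p = 0.0123). Under that block 20.5% of all genes passed in either direction. Sprouty gene Spry4 (log2 change -0.02, SE 0.21), the ETS genes Etv4 (0.07, SE 0.13) and Etv5 (0.05, SE 0.08) and Egr1 (0.00, SE 0.25) showed changes within their spread. For Egr1 the interval ran from -0.54 to 0.53, so that a change of the size seen for Dusp6 could not be told from none. Ier3 had a log2 change of -0.34 (SE 0.29) and Phlda1 of -0.08 (SE 0.21).

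In Ctu1 iKO cells only Dusp4 was called with torin 1, where 3.48% of 9855 genes were called higher and 4.52% lower. Its footprints were 39.6, 48.0, 29.8, 28.9 and 29.9 CPM in the 5 DMSO libraries and 64.1 to 108 (median 81.9) in the 6 torin 1 libraries, again without overlap, which 8.68% of genes showed. The log2 change was 1.14 (2.2-fold, SE 0.18, adjusted p = 0.000941). The ratio of CPM within a replicate number was 2.25 to 2.97 in 5 of 5. These ratios lack the scaling of the fit, and by library totals alone the median change of all genes was 0.11 here, against 0.02 with it. Spry2 gave 16.8, 15.9, 9.98, 12.1 and 13.8 CPM with DMSO and 15.8 to 32.9 (median 24.5) with torin 1. That is a log2 change of 0.68 (SE 0.20, adjusted p = 0.0523), beside 0.62 in control cells, and it was not called. Dusp6 gave 167, 224, 141, 147 and 162 CPM with DMSO and 200.2 to 283 (median 223) with torin 1, a log2 change of 0.35 (SE 0.14, adjusted p = 0.158). Both were higher in 5 of 5 replicate numbers. Same-numbered libraries deviated together in 4 of 5 pairs. With the replicate number as a block Spry2 (0.72, adjusted p = 0.0254) and Dusp6 (0.38, adjusted p = 0.0319) passed beside Dusp4, where 983 of all genes passed in either direction. For Fosl1 the log2 change was -0.26 (SE 0.23), and for the remaining 6 genes it lay between -0.15 (Egr1) and 0.13 (Etv5).

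The torin 1 effects were then compared between genotypes as an interaction. None of the 10 genes was called, while 0.639% of 9857 genes were. None of the 10 had an unadjusted p under 0.05 either, whereas 460 of all genes did. The difference, Ctu1 iKO minus control, was 0.12 on the log2 scale for Dusp4 (95% confidence interval -0.34 to 0.57), 0.07 for Spry2 (-0.46 to 0.60) and -0.10 for Dusp6 (-0.49 to 0.29). These intervals do not show that the genotypes responded alike, since a gap as large as the torin 1 change of Dusp6 in control lies within each of them.

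**Figure D2:**
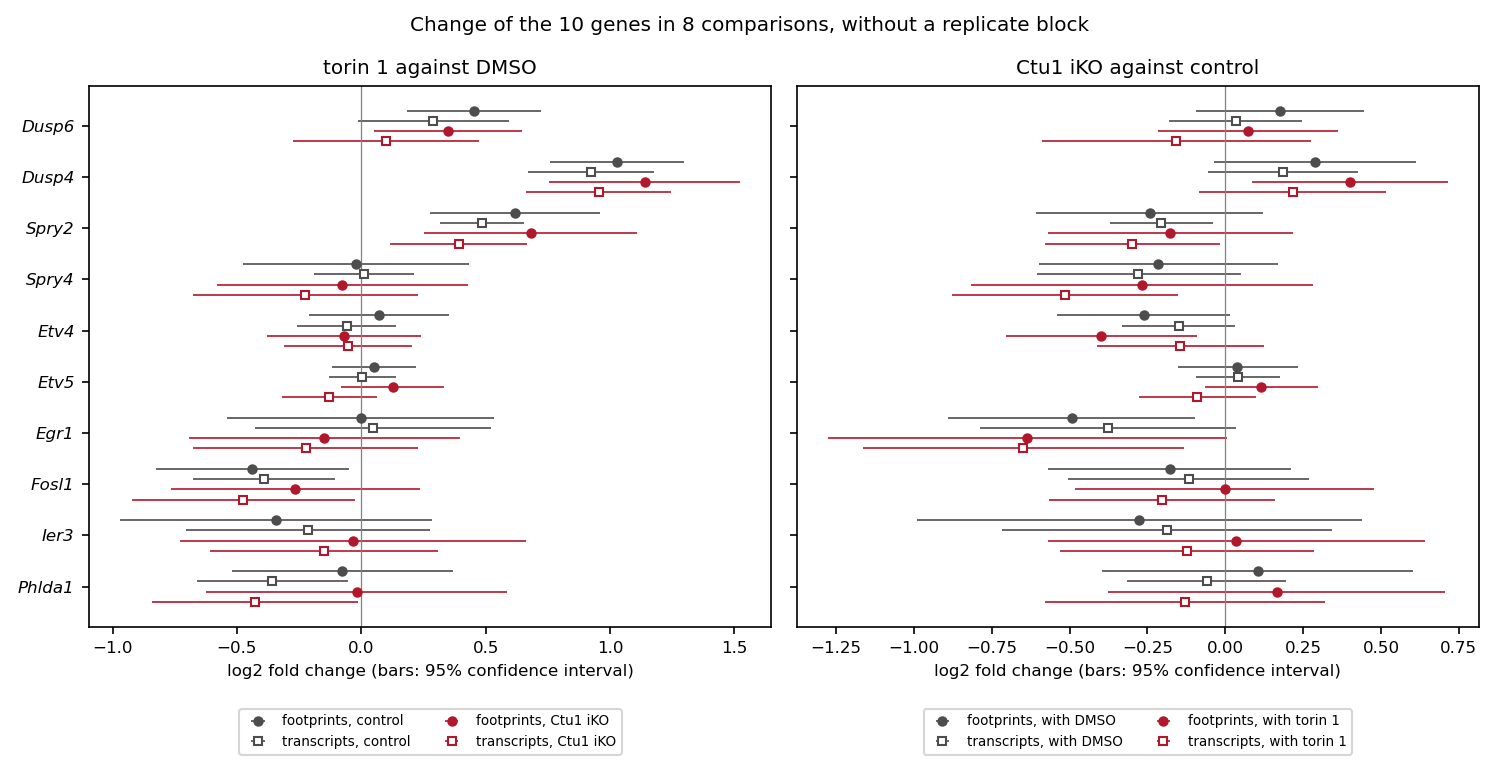
Log2 fold change (horizontal axis) of the 10 genes with 95% confidence intervals as bars, for torin 1 against DMSO on the left and Ctu1 iKO against control on the right, from edgeR without a replicate block. Filled circles are footprints and open squares transcripts. Dusp4 lies near 1 with torin 1 in all 4 comparisons, and most intervals on the right span 0.

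Transcripts were compared in the same way, to set the level of the mRNA beside that of its footprints. In control cells with torin 1 Dusp4 and Spry2 rose (2 of the 10; 5.69% of 9617 genes were called higher and 7.4% lower). Dusp4 transcripts were at 33.2, 37.9 and 37.5 CPM with DMSO and at 58.5, 73.1 and 70.1 with torin 1 in replicates 1 to 3. All 3 torin 1 values lay above all DMSO values, with a log2 change of 0.92 (SE 0.11, adjusted p = 0.00318). Spry2 was at 26.3, 26.3 and 26.5 CPM and then at 34.6, 34.9 and 39.1, a log2 change of 0.49 (SE 0.07, adjusted p = 0.00661). Dusp6 was at 152, 154 and 165 CPM and then at 153, 199 and 212, with a log2 change of 0.29 (SE 0.13, adjusted p = 0.202), so that a rise of its transcript was not called.

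Fosl1 and Phlda1 transcripts lay lower with torin 1, without a call. Fosl1 was at 73.7, 74.5 and 95.3 CPM with DMSO and at 56.1, 61.8 and 64.4 with torin 1 (log2 change -0.39, SE 0.12, adjusted p = 0.0823). Phlda1 was at 44.8, 50.6 and 51.7 CPM and then at 30.9, 39.6 and 41.9 (-0.36, SE 0.13, adjusted p = 0.122). For both genes the groups did not overlap, as for Dusp4 and Spry2, which makes 4 of 10 against 32.9% of all genes. Same-numbered transcript libraries deviated together in all 3 pairs, and with the replicate block 5 of the 10 passed: Dusp4, Spry2 and Dusp6 (log2 change 0.28, adjusted p = 0.00523) rose, and Fosl1 (-0.38, adjusted p = 0.000749) and Phlda1 (-0.37, adjusted p = 0.000346) fell, where 43.7% of all genes passed in either direction.

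In Ctu1 iKO cells Dusp4 transcripts were at 40.1, 45.7 and 36.1 CPM with DMSO and at 66.6, 84.2 and 75.9 with torin 1, a log2 change of 0.96 (SE 0.12, adjusted p = 0.00797). It was the only call among the 10, where 3.73% of 9619 genes were called higher and 4.52% lower. Without Ctu1 iKO DMSO replicate 1 the call was lost (adjusted p = 0.0505). Spry2 was at 22.0, 22.1 and 23.7 CPM and then at 25.8, 26.4 and 33.2, with a log2 change of 0.39 (SE 0.12, adjusted p = 0.0902). Dusp4, Spry2 and Etv5 did not overlap between the treatments, the last with 101.8, 103 and 110 CPM against 86.1, 92.8 and 97.3, and 32.3% of all genes did not overlap either. With the replicate block 4 of the 10 passed, Dusp4 and Spry2 (0.38, adjusted p = 0.00465) higher and Fosl1 (-0.48, adjusted p = 0.0037) and Phlda1 (-0.45, adjusted p = 0.00298) lower, against 35.1% of all genes. The difference of the torin 1 effects on transcripts was called for 0 of the 10 and for 0 of 9616 genes (0%) by edgeR. At an unadjusted p under 0.05 there were 140 genes, none of the 10 among them, and DESeq2 called 3.

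**Figure D3:**
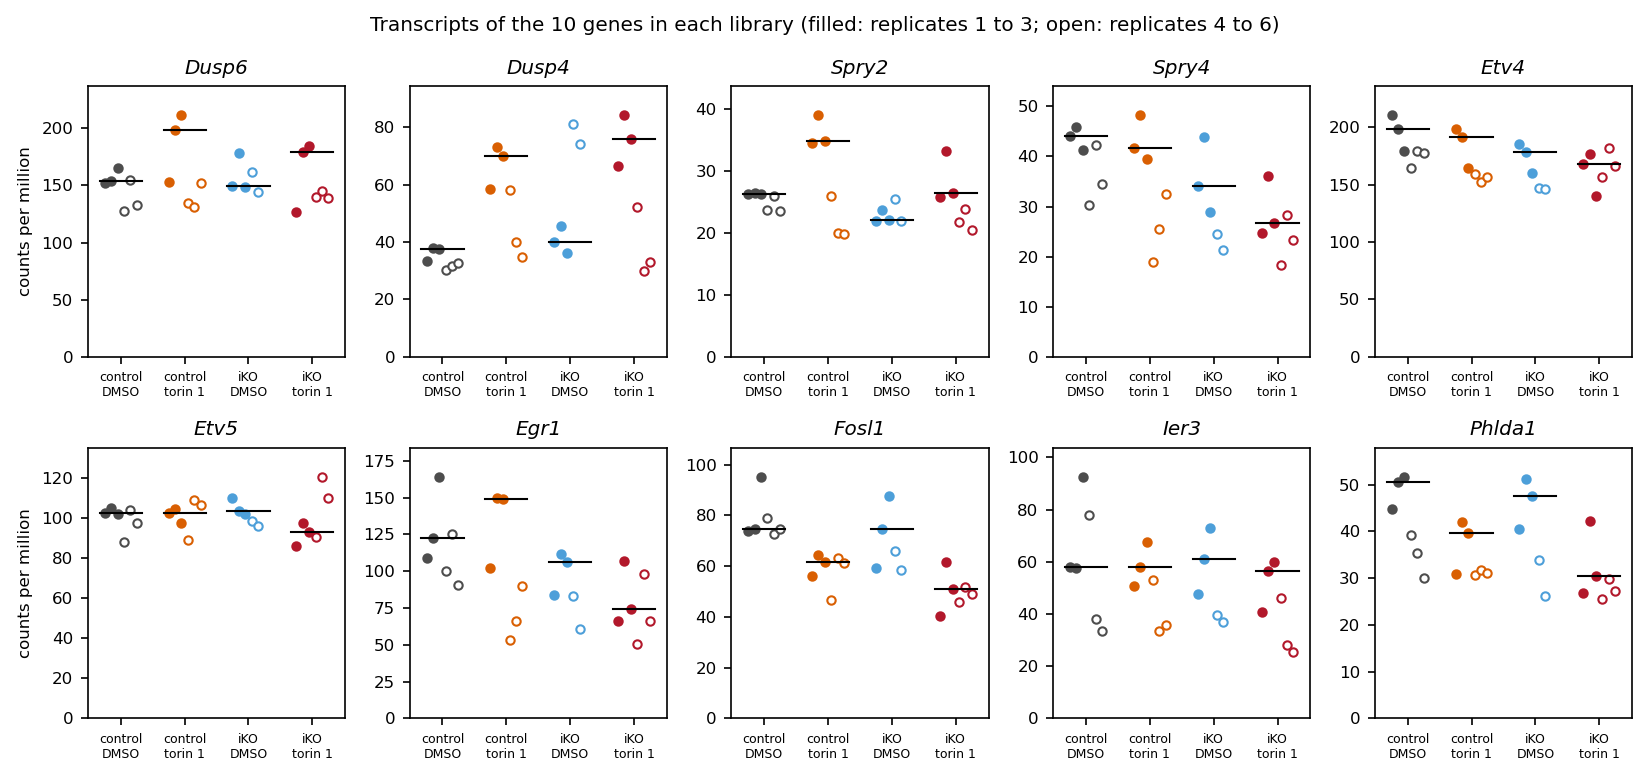
Transcript CPM (vertical axis, linear from 0) of each gene by genotype and treatment, with replicates 1 to 3 as filled points, replicates 4 to 6 as open points and lines at the medians of replicates 1 to 3. In Dusp4 the open points of Ctu1 iKO DMSO lie at 74.2 and 81.1, above the filled points of that group at 36.1 to 45.7.

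Genotype was compared within each treatment. With DMSO, Ctu1 iKO against control gave 0 calls among the 10 genes in footprints, where 2.66% of 10397 genes were called, and in transcripts, where 5.12% of 10119 were. At an unadjusted p under 0.05 there was 1 of the 10 in each assay, Egr1 in footprints and Spry2 in transcripts. Of all genes, 1863 of 10397 and 2470 of 10119 had such a value. DESeq2 called 0 of the 10 in footprints and 1 in transcripts, against 700 and 1527 of all genes. The immediate-early gene Egr1 gave 76.7 to 121 footprint CPM (median 111) in control and 72.0, 106, 75.2, 45.7 and 77.3 in Ctu1 iKO, with overlapping groups and a log2 change of -0.49 (SE 0.19, adjusted p = 0.172). Etv4 gave 58.6 to 80.8 CPM (median 63.9) in control and 69.3, 64.0, 59.4, 51.7 and 46.6 in Ctu1 iKO (-0.26, SE 0.13, adjusted p = 0.311). In all 5 replicate numbers, both lay below control. With the replicate number as a block Egr1 passed (-0.59, adjusted p = 0.031), where 364 of all genes did. In footprints no gene of the 10 had groups that did not overlap, against 4.76% of all genes.

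Transcripts of several of these genes were lower in Ctu1 iKO too, without a call. Spry2 was at 22.0, 22.1 and 23.7 CPM in Ctu1 iKO and at 26.3, 26.3 and 26.5 in control, without overlap, as for 31.4% of all genes, with a log2 change of -0.20 (SE 0.07, adjusted p = 0.128). With the replicate block, 4 of the 10 passed, all lower in Ctu1 iKO, against 28% of all genes: Spry2 (-0.21, adjusted p = 0.0372), Spry4 (-0.30, adjusted p = 0.0337), Etv4 (-0.15, adjusted p = 0.0426) and Egr1 (-0.37, adjusted p = 0.0165). Spry4 was at 28.9, 34.1 and 43.8 CPM in Ctu1 iKO and at 41.3, 44.0 and 45.8 in control. Etv5, by contrast, gave 101.8 to 110 CPM in Ctu1 iKO and 102 to 105 in control (log2 change 0.04, SE 0.06).

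With torin 1, Ctu1 iKO against control again gave 0 calls among the 10 genes in footprints, where 4.83% of 9913 genes were called, and in transcripts, where 1.31% of 9650 were. At an unadjusted p under 0.05 there were 2 of the 10 in footprints, against 1863 of 9913 genes. In transcripts there were 3, against 1932 of 9650. DESeq2 called 0 and 2 of the 10, against 842 and 1092 of all genes. Dusp4 footprints lay at 50.5 to 75.6 CPM (median 57.4) in control and at 64.1 to 108 (median 81.9) in Ctu1 iKO, with overlap (log2 change 0.40, SE 0.15, adjusted p = 0.148). Etv4 lay at 57.4 to 91.1 (median 79.4) and at 49.9 to 72.9 (median 55.9), a log2 change of -0.40 (SE 0.14, adjusted p = 0.139). Egr1 lay at 40.2 to 189 (median 106) and at 49.7 to 125 (median 62.4), a log2 change of -0.64 (SE 0.30, adjusted p = 0.271). No gene of the 10 was free of overlap, against 4.52% of all genes.

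Dusp4 lay 1.24 to 1.57 times above control in 6 of 6 replicate numbers, and Etv4 and Egr1 lay below it in 5 of 6. These libraries deviated together by number in all 6 pairs, and with the replicate block 3 of the 10 passed, against 14.4% of all genes. Dusp4 rose by 0.39 (adjusted p = 0.00848), and Etv4 (-0.39, adjusted p = 0.0243) and Egr1 (-0.59, adjusted p = 0.0173) fell. Among transcripts with torin 1, Egr1 was at 66.4, 74.5 and 107 CPM in Ctu1 iKO and at 102, 149 and 150 in control (log2 change -0.65, SE 0.22, adjusted p = 0.168). Spry4 was at 24.8, 26.8 and 36.1 CPM against 39.5, 41.7 and 48.3 (-0.51, SE 0.16, adjusted p = 0.137). Spry4 and Spry2 did not overlap, against 27.2% of all genes.

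Under the block 5 of the 10 transcripts passed with torin 1, against 32.8% of all genes. Egr1 (-0.66, adjusted p = 0.00174), Spry4 (-0.53, adjusted p = 0.00132), Spry2 (-0.31, adjusted p = 0.00864) and Dusp6 (-0.16, adjusted p = 0.0484) fell, and Dusp4 rose by 0.22 (adjusted p = 0.0202). Dusp4 was thus the 1 member that lay higher with Ctu1 iKO and torin 1 in both assays. Its transcript CPM differed by 1.08 to 1.15 times in 3 replicate numbers and its footprint CPM by 1.24 to 1.57 times in 6. These ranges cover different libraries and cannot be set against each other. On replicates 1 to 3 of both assays its footprints were not called beyond its transcript (log2 change 0.235, adjusted p = 0.844, edgeR with the culture as a factor).

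Whether footprints moved beyond transcripts was tested as translational efficiency, the footprint level set against the transcript level of the same gene. In the 4 comparisons 0 of the 10 genes were called and 0 had an unadjusted p under 0.05, which 399 to 891 of all genes had. Across all genes 1.14% of 9848 were called for torin 1 in control, 1.67% of 9845 for torin 1 in Ctu1 iKO, 0% of 10386 for Ctu1 iKO with DMSO (edgeR; 399 genes at an unadjusted p under 0.05, and DESeq2 called 20) and 0.111% of 9901 for Ctu1 iKO with torin 1. For Dusp4 the torin 1 change in efficiency was 0.12 (95% confidence interval -0.29 to 0.54) in control and 0.25 (-0.31 to 0.80) in Ctu1 iKO, beside a transcript change of 0.92 and 0.96. For Dusp6 it was 0.27 (-0.15 to 0.68) and 0.24 (-0.38 to 0.86). Phlda1, whose transcripts lay lower with torin 1 beside footprint changes of -0.08 and -0.02, had 0.38 (-0.13 to 0.89) and 0.45 (-0.35 to 1.25).

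As a description within cultures, log2 footprint CPM minus log2 transcript CPM was lowest for Etv4, at -1.41 ± 0.14 (SD, n = 3) in control with DMSO, and highest for Phlda1, at 0.26 ± 0.19. Phlda1 stood at 0.76 ± 0.29 in control with torin 1, 0.50 ± 0.32 in Ctu1 iKO with DMSO and 1.11 ± 0.31 in Ctu1 iKO with torin 1. Dusp4 stood at -0.22 ± 0.03, 0.03 ± 0.02, -0.07 ± 0.18 and 0.35 ± 0.13 in the same order of groups. These values carry the scale of each library, so that a shift of all genes moves them too.

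**Figure D4:**
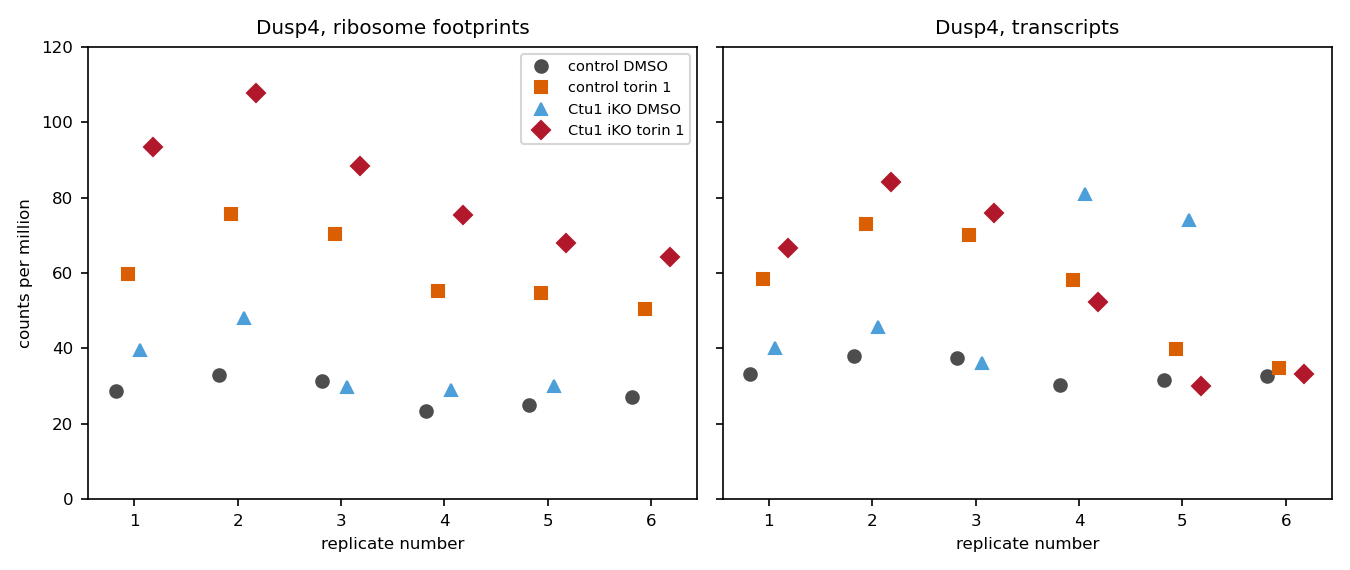
Dusp4 CPM (vertical axis, linear from 0) in footprints on the left and transcripts on the right, by replicate number, where colour and shape mark the 4 groups and points are libraries. In footprints the torin 1 points lie above the DMSO points of their genotype in every replicate number that holds both, whereas transcripts of Ctu1 iKO DMSO replicates 4 and 5 lie at 81.1 and 74.2, above both torin 1 points of those numbers.

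The 10 genes did not vary as 1 unit. Over the 23 footprint libraries the Pearson correlation of log2 CPM ran from -0.244 to 0.86 across 45 pairs of genes, with a median of 0.415. It was highest for Dusp6 with Dusp4 (0.86), Spry4 with Egr1 (0.853) and Ier3 with Phlda1 (0.821). The libraries share treatment, genotype and replicate number, so these values describe the set and are not tests. The treatment accounted for 79.4% of the variance of Dusp4 footprints, 57.5% for Spry2 and 53.0% for Dusp6. The replicate number accounted for 88.1% in Phlda1, 80.3% in Ier3, 68.4% in Spry4, 58.1% in Fosl1 and 56.8% in Egr1. It has more levels than the treatment and so takes up more variance by chance alone. Shares over all genes were not computed. The mean course of the 10 genes was most like that of Junb (r = 0.94), Midn (0.914), Egr3 (0.901), Ier5 (0.879) and Epha2 (0.874), out of 9847 other genes over 23 libraries.

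The early-response genes showed the dependence on the replicate number best. Ier3 footprints lay at 20.7 to 24.3 CPM in the 4 libraries of replicate 5 and at 22.6 to 24.8 in the 3 of replicate 6, against 53.2 to 58.6 in the 4 libraries of replicate 2. In these numbers the libraries lay close together whatever they received, whereas in replicate 4 they ranged from 19.8 to 57.1 CPM. Phlda1 lay at 63.8 to 95.9 CPM in replicate 2 and at 33.5 to 38.5 in replicate 6. Ier3 transcripts were also lower in replicates 5 (28.3 to 38.2 CPM) and 6 (25.2 to 35.9) than in replicate 2 (56.5 to 60.9). What differed between the numbers was not tested.

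**Figure D5:**
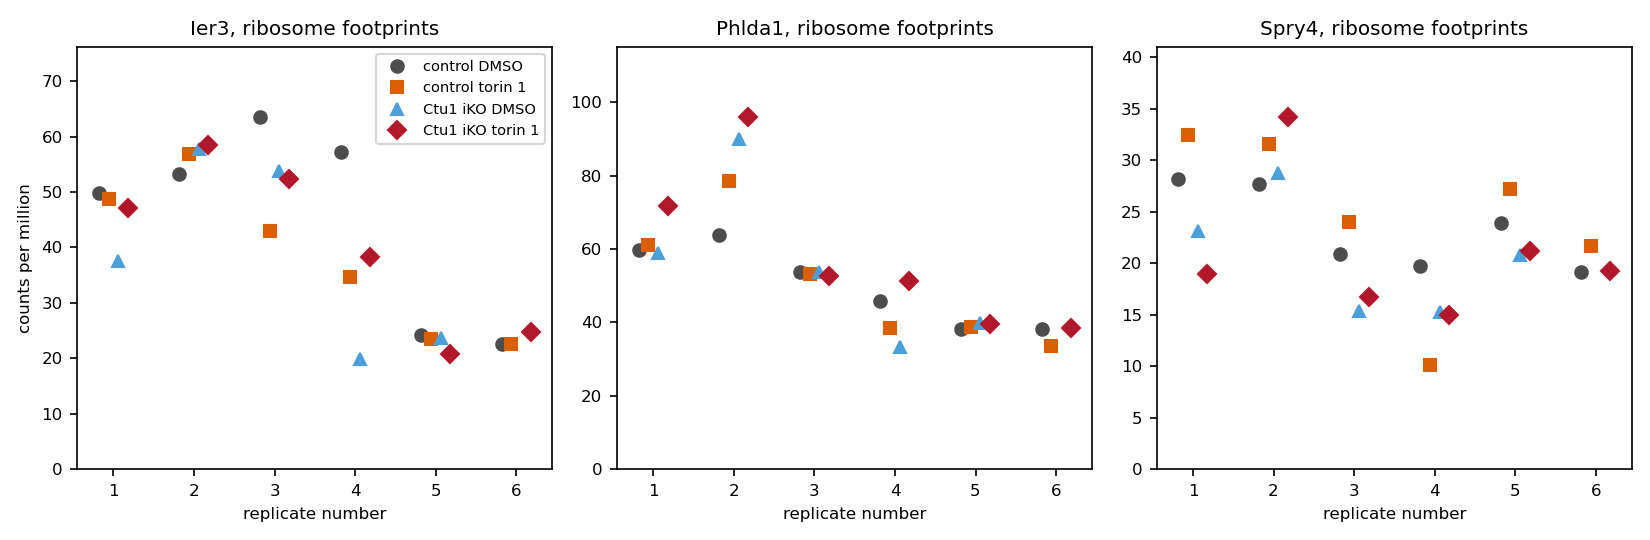
Footprint CPM (vertical axis, linear from 0) of Ier3, Phlda1 and Spry4 by replicate number, where colour and shape mark the 4 groups and points are libraries. Ier3 lies between 20.7 and 24.8 in all libraries of replicates 5 and 6, and Phlda1 lies at 63.8 to 95.9 in replicate 2 and at 33.5 to 38.5 in replicate 6.

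Around the 10 genes, 6 lists of pathway genes were followed in the same fits. With torin 1 in control footprints, where 2.91% of all genes were called higher and 4.33% lower, 1 of 16 receptors and adaptors rose, the insulin receptor substrate gene Irs2 (log2 change 1.34), and 2 of 20 genes of the RAS to ERK cascade, Shoc2 (0.53) and Nras (0.39). Of 16 other feedback regulators 2 rose, Spred1 (0.53) and Trib1 (0.52), and 2 fell, among them Dusp14 (-0.50). Of 22 other immediate-early and ERK-induced transcription factors 3 rose, Klf4 (1.53), Klf6 (0.70) and Klf10 (0.61), and 1 fell. Their median change was 0.38, against 0.01 over all genes and 0.02 over the 10 members. Of 16 ligands and effectors 3 rose, among them Plau (0.67) and the EGFR ligand gene Areg (0.63), and 2 fell, among them Odc1 (-0.72), the rate-limiting enzyme of polyamine synthesis. None of 9 AU-rich element binding proteins was called. In the 12 fits without 1 library Trib1, Dusp14 and Klf10 lost the call in 10, 9 and 10, and the other genes named kept it in all 12.

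In Ctu1 iKO footprints with torin 1 (3.48% of all genes higher, 4.52% lower), Irs2 (1.59) and Met (0.49) rose among the receptors, 1 of the cascade rose (Rasa1, 0.66) and 2 fell (Hras, -0.87, and Pebp1, -0.42). Feedback genes Dusp10 (1.23) and Spred1 (0.66) rose and Cbl (-0.57) fell. Klf4 (1.58), Elk1 (1.04) and Klf6 (0.97) rose among 22 transcription factors. Odc1 (-1.14) and Ccnd1 (-0.47) fell among 16 effectors with 0 higher, and Khsrp (-0.40) among 9 AU-rich element binding proteins. The median over the 10 members was -0.03. In the 11 fits without 1 library Irs2, Met, Spred1, Klf4, Klf6, Odc1 and Ccnd1 kept the call in all 11, and the other genes named lost it in 4 (Hras) to 10 (Cbl and Elk1).

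In transcripts with torin 1 in control, where 5.69% of all genes were called higher and 7.4% lower, 9 of 22 transcription factors rose, led by Klf4 (1.29), Egr2 (0.97) and Ier5 (0.86), and 0 fell. Of 16 feedback regulators 6 rose, led by the phosphatase genes Dusp10 (0.99), Dusp1 (0.75) and Dusp5 (0.68), and 2 fell. Among receptors and adaptors 3 rose, led by Irs2 (1.33) and Irs1 (0.56), and Sos1 (-0.59) fell. Of the cascade Rasa1 (0.43) rose, and of the effectors 3 rose, led by Areg (0.66) and Epha4 (0.62), and 2 fell, led by Lif (-0.61). Irs2, Sos1, Dusp1, Klf4, Egr2, Ier5 and Lif kept the call in 6 of 6 fits without 1 library, and the other genes named lost it in 2 to 4. In Ctu1 iKO, where 3.73% of all genes were called higher and 4.52% lower, 4 of 22 transcription factors rose, led by Klf4 (1.24), Ier5 (0.83) and Klf6 (0.81). Of the feedback regulators 3 rose, led by Dusp10 (1.26) and Dusp1 (0.66), and 2 fell, led by Dusp14 (-0.78). Irs2 (1.32), Irs1 (0.76), Epha4 (0.88) and Areg (0.86) rose there, and Sos1 (-0.67) fell. Irs2 kept the call in 6 of 6 fits without 1 library, and the other genes named lost it in 1 to 5, all of them without Ctu1 iKO DMSO replicate 1. AU-rich element binding proteins gave 0 of 9 calls in both genotypes.

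Between genotypes few of the list genes were called, beside 2.66% of all genes in footprints and 5.12% in transcripts with DMSO, and 4.83% and 1.31% with torin 1. Rps6ka1, which encodes the ERK substrate kinase RSK1, was lower in Ctu1 iKO in all 4 comparisons, by log2 changes of -0.51 in footprints and -0.55 in transcripts with DMSO and of -0.70 and -0.69 with torin 1. Without 1 library the footprint calls held in 11 of 11 and 12 of 12 fits, but the transcript call with DMSO was lost in 3 of 6 (without control DMSO replicate 2 or Ctu1 iKO DMSO replicate 1 or 2, adjusted p up to 0.0829) and that with torin 1 in 5 of 6 (all but that without Ctu1 iKO torin 1 replicate 3, adjusted p up to 0.267). With DMSO no other list gene was called in footprints, and in transcripts Egr2 (0.78), Klf4 (0.72), Hmga2 (0.51), Emp1 (0.48) and Cd44 (0.42) were higher. These 5 lost the call in 4 or 5 of 6 fits without 1 library, and without control DMSO replicate 2 the calls over all genes went from 518 to 0. With torin 1, Klf4 was higher in both assays (0.74 in footprints, 0.67 in transcripts). In footprints Rasa1 (0.70) was also higher and Odc1 (-0.71), Khsrp (-0.40) and Hnrnpd (-0.36) were lower, and in transcripts Dusp10 (0.85) was higher. Klf4 and Odc1 kept the footprint call in 12 of 12 fits without 1 library, whereas Rasa1 lost it in 7, Khsrp in 11 and Hnrnpd in 5, and the transcript calls of Klf4 and Dusp10 were lost in 5 of 6. Of the 10 members none was called in these fits, and Dusp4 and Egr1 had changes of opposite sign.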

How the data were processed

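The authors deposited raw counts per gene and library with no normalization, and tables of 1 treatment list the same genes. Their notes and methods name cutadapt 3.4, UMI-tools 1.1.1, removal of rRNA reads and STAR 2.5.3a for footprints. The notes give the mouse builds GRCm38 or mm10, whereas the methods give a human build for aligning the footprints. The symbols listed are mouse symbols. Transcripts came from stranded poly(A) libraries, counted by a workflow of the sequencing facility. Listed genes reached at least 100 footprint counts in 1 library or more, every transcript count was even, and 11 symbols with several entries were left out.

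The members, gene lists and tests were chosen with earlier results of these data known. Named besides the 10 members are, per list and comparison, up to 3 called genes with the largest change, Ctu1, and the 5 genes most like the members' mean. Some results that this rule names are not reported here. Tests were run in edgeR 4.0.16 under R 4.3.3, by its quasi-likelihood method with TMM factors and no replicate block, on genes whose mean count was 10 or more; adjusted p-values are Benjamini-Hochberg values over all genes tested, and 0.05 is the threshold. Translational efficiency is the interaction of assay and group. CPM are counts per 1000000 over genes listed in both treatments, and log2 CPM has a pseudocount of 1. Ratios within a replicate number are ratios of CPM without TMM factors, whereas log2 changes of the fits carry them. DESeq2 1.42.0, other scaling, filters, replicates and left-out libraries were the alternatives. The edgeR fits of torin 1 in control (footprints, transcripts and efficiency) and of the footprint interaction were tried on simulated counts. They were run with and without the block, on counts that held no effect of the replicate number. Fits of the other comparisons and DESeq2 were not tried in this way.

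Groups and replicate numbers come from the labels. For ribosome profiling the study's methods describe 2 independent experiments on consecutive days, whereas its legends count 5 or 6 independent experiments. For transcripts of Ctu1 iKO against control its legends count 2 independent experiments, whereas replicates 1 to 3 were compared here. The replicates may thus all be independent, or p-values may measure a spread that is in part technical. Between control DMSO transcript libraries, chi-square per degree of freedom was 39.4 (replicates 1 and 2), 119 (3 and 4) and 86.1 (5 and 6). All other pairs there gave 167 to 389, but not every group fell into such sets. The labels do not say what a number marks. Deviations from group means correlated above 0.1 in all same-number pairs of control DMSO with control torin 1 (0.436 to 0.641), of control torin 1 with Ctu1 iKO torin 1 (0.32 to 0.546) and of the 4 transcript comparisons (0.487 to 0.837), which were taken as paired, but in 4 of 5 pairs with footprints of Ctu1 iKO DMSO. Counts limit the precision by counting error only, at 87 or more footprint counts per member and library.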

Additional observations from a re-analysis of the deposited data

Results flagged for a closer look

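Dusp4 transcripts in 6 libraries outside the comparisons went against the level of their group. In control torin 1 they were at 39.9 CPM in replicate 5 and 34.8 in replicate 6, below the 58.5 to 73.1 of replicates 1 to 3. In Ctu1 iKO DMSO they were at 81.1 in replicate 4 and 74.2 in replicate 5, above 36.1 to 45.7, and in Ctu1 iKO torin 1 at 29.9 in replicate 5 and 33.1 in replicate 6, below 66.6 to 84.2. These are the 6 transcript libraries that lay nearer to the other treatment over 168 higher and 276 lower genes; what their labels should be was not tested.

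Ctu1 iKO torin 1 replicate 2 stood apart in footprints of Spry4, at 34.2 CPM against 14.9 to 21.2 in the other 5 libraries, and of Fosl1, at 90.8 against 39.1 to 52.5. In each, the gap to the nearest library exceeded 0.625 of the whole range (0.675 and 0.741), the 95% limit for 6 libraries. With 40 groups looked at, chance alone flags about 1 in 20, and 2 were flagged.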

How the results depend on the processing

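No change of a member that was called reversed its sign under any alternative that was run. Of the 10 members, footprints with torin 1 in control (3 called) gave 1 with replicates 1 to 3, 0 with replicates 1 and 2, 1 with replicates 3 to 6 and 1 to 3 without 1 library; 1 remained without control DMSO replicate 4 or 6 or control torin 1 replicate 1, 2, 3 or 5. Footprints with torin 1 in Ctu1 iKO (1 called) gave 2 under DESeq2, library totals, at least 10 counts in every library, 1 fit over all 4 groups or replicates 3 to 6, 0 with replicates 1 and 2, and 1 to 2 without 1 library, 2 without Ctu1 iKO DMSO replicate 1 or 2 or Ctu1 iKO torin 1 replicate 4. Transcripts with torin 1 gave 2 to 3 in control (2 called) without 1 library, 3 without control torin 1 replicate 1. With all replicates as labelled Spry2 lost its call there (log2 change 0.22, adjusted p = 0.401) and Fosl1 gained one (-0.39, adjusted p = 0.0153), as Fosl1 also did under DESeq2 (adjusted p = 0.0275). In Ctu1 iKO (1 called) they gave 2 under DESeq2 or 1 fit over all 4 groups, 0 with all replicates as labelled, where the log2 change of Dusp4 was 0.06, and 0 to 1 without 1 library, 0 without Ctu1 iKO DMSO replicate 1. Transcripts of Ctu1 iKO against control (0 called) gave 1 under DESeq2 (Spry2) and 1 with all replicates (Dusp4) with DMSO, and 2 under DESeq2 (Egr1 and Spry4) with torin 1. Fewer replicates and other tools change the spread that is estimated; which of these moved a count was not tested.

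With the replicate number as a block, the members called went from 3 to 4 and 0 to 3 in footprints of the paired comparisons and from 2 to 5, 1 to 4, 0 to 4 and 0 to 5 in transcripts. Comparisons with footprints of Ctu1 iKO DMSO had 4 of 5 same-number pairs correlated above 0.1 and were not taken as paired. There the block gave 3 in place of 1 (Dusp4, Dusp6 and Spry2 with torin 1 in Ctu1 iKO) and 1 in place of 0 (Egr1 with DMSO). It changed no other member count.

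Over all genes, with DESeq2 against edgeR the calls were 700 against 277 and 842 against 479 for Ctu1 iKO in footprints with DMSO and torin 1, and 109 against 63 for the interaction. In transcripts they were 1963 against 1259 and 1609 against 794 for torin 1, 1527 against 518 and 1092 against 126 for Ctu1 iKO and 3 against 0 for the interaction. In translational efficiency they were 225 against 112, 321 against 164, 20 against 0 and 106 against 11. The block gave 2019 against 714, 1425 against 479 and 139 against 63 in footprints, 4206, 3378, 2831 and 3162 in transcripts and 1 against 0 in efficiency with DMSO. One fit over all groups gave 1187 against 788 and 842 against 479 in footprints and 1717 against 794 and 970 against 126 in transcripts. Footprint replicates 1 to 3 gave 138, 178, 2, 1 and 2 calls, replicates 1 and 2 gave 134, 144, 0, 0 and 1, and replicates 3 to 6 gave 184 against 277. All transcript replicates gave 0, 2677 and 0 against 794, 518 and 126, and 253, 5 and 112 against 164, 0 and 11 in efficiency, and transcript replicates 1 and 2 gave 1547 and 12 against 518 and 126. Library totals gave 3 against 11 in efficiency with torin 1. Without 1 library, calls ranged from 144 to 285 and 301 to 572 for Ctu1 iKO footprints, 412 to 1233, 123 to 1123, 0 to 511 and 1 to 406 for transcripts and 61 to 104, 104 to 162 and 0 to 2 for efficiency.

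Library totals in place of TMM moved the share of higher calls from 40.2% to 64.8% and 43.5% to 64.7% for torin 1 in footprints, 61.0% to 73.2% and 46.1% to 58.2% for Ctu1 iKO, 43.4% to 33.3% and 45.2% to 30.8% for torin 1 in transcripts and 73.0% to 58.2% for Ctu1 iKO with torin 1. The median of all genes then stood at 0.10 and 0.11 for torin 1 in footprints and 0.16 and 0.20 in efficiency.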
